A study of Coturnix japonica with 12 samples.

Results

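Ethynylestradiol changed the expression of 3253 of 11790 tested genes (27.6%) when the left and right Müllerian ducts of female Japanese quail embryos were analysed together. For 1874 of these genes the estimated changes had the same direction and a similar size on both sides. Ethynylestradiol (EE) is a synthetic oestrogen. The comparison set 6 EE samples against 6 oil samples, all 12 samples of the series, with side as a covariate. A gene was called when its adjusted p over both sides was under 0.05, and was counted as shared when the left and right log2 ratios of EE over oil had the same sign and the smaller was at least 0.5 of the larger. The direction and the similarity of size within the shared genes are therefore descriptions of how they were chosen. Of the shared genes 878 were also called in left and in right ducts when each side was taken separately. The 14 genes of each direction named for the largest shared changes were also chosen for EE samples all above or all below the oil samples. For those genes the separation of the treatments is no finding, and statements of it below only describe their values. The genes named from gene lists were mostly the shared members with the lowest p in these same samples. That choice favours separated treatments and small p-values, so for these genes too they are descriptions.

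RNA was sequenced from Müllerian ducts of female Coturnix japonica embryos kept in a surrogate eggshell and given either sesame oil or EE dissolved in sesame oil during embryonic days 3 to 12. The 4 groups were left ducts with oil, right ducts with oil, left ducts with EE and right ducts with EE, with 3 samples each. The labels give the embryos no genetic modification, and they do not say how many embryos or ducts went into a sample or what dose of EE was used. Total counts ranged from 13303458 to 23621985 per sample.

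The Müllerian duct is the embryonic epithelial tube, wrapped in mesenchyme, that forms the oviduct. In female birds the left duct normally goes on to form the oviduct and the right duct regresses under anti-Müllerian hormone. Oestrogen acts in the oviduct mainly through its nuclear receptor, encoded by ESR1, and in the hatched bird it drives the differentiation of glandular, ciliated and goblet cells and the secretion of egg-white proteins.

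All 7 genes used to check the label of the tissue, the duct markers PAX2, LHX1, EMX2, WNT7A, HOXA10, HOXA11 and AMHR2, had counts in every sample, and EMX2 ranged from 117 to 172 CPM, the count scaled to library size with TMM factors. Transcripts of other tissues were present in part of the samples. The 7 haemoglobin genes took 1.35 to 3.01% of the counts in left oil, 6.11 to 12.7% in right oil, 0.991 to 2.098% in left EE and 1.66 to 5.65% in right EE samples. The summed level of 16 macrophage and leukocyte markers was 277 to 297 CPM in right oil samples and between 97.2 and 156 CPM in the other 9 samples. That of 6 liver markers was 242.5 to 310 CPM in left oil and 1107 to 1823 CPM in right oil samples. In EE it was 319 to 357 CPM in left and 436 to 1531 CPM in right samples. Left oil sample 1 had 40 genes above 5 CPM that exceeded every other sample more than 5 times, 29 of them keratins by description, right oil sample 1 had 28 such genes led by the skeletal muscle gene MYL1, and right EE sample 1 had 38 led by the liver genes ALB and TF. None of these genes was shared, and no such gene was found in the other 9 samples. With a covariate for the haemoglobin share 2027 genes were called and 1445 were shared. With those 3 samples left out 1899 genes were called and 1275 were shared, 667 higher and 608 lower. Fewer samples also lower the power of the test, and leaving out 1 sample at a time gave 2577 to 3365 calls. No other 3 samples were left out for comparison. Here and below, calls lost through fewer samples and calls lost through these transcripts therefore cannot be told apart.

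Of the 3253 called genes, 1561 were higher in EE (13.2% of tested genes) and 1692 were lower (14.4%). Shared genes were 57.6% of all called genes, and the counts of the gene lists below are to be read beside these shares. In the additive model a difference between sides adds to the residual spread, so the share of 57.6% depended on the model. For the average of the left and right effects 4225 genes were called and 2006 were shared. The split depended on the scaling. With scaling by library size alone 2360 were called higher and 1009 lower, 70.05% of calls higher instead of 47.99%, and the median log2 ratio of all tested genes moved from -0.00 to 0.10. The shared genes comprised 955 higher (8.1% of tested genes) and 919 lower (7.79%) genes. All 1874 kept their sign under every scaling, which was nearly fixed by choosing them from the same counts. Among the called genes 3216 had the same sign on both sides and 37 had opposite signs. Opposite changes cancel in a treatment effect taken over both sides, so this agreement was largely fixed by the test. Of 1106 genes called in left and in right ducts separately, 1013 had the same sign and 93 had opposite signs. Genes called over both sides with the same sign but not shared were mostly more changed on the right, with 488 higher and 602 lower. Of the others, 99 higher and 153 lower genes were more changed on the left.

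Taken separately, the right ducts gave more calls than the left ducts. EE against oil called 1612 genes in left ducts (13.7%) and 4112 in right ducts (34.9%). The groups share no sample, but both comparisons came from the same model fit with a common estimate of the spread. The haemoglobin share and the macrophage marker sum were highest in right oil samples, and their part in the larger right count was not tested. Shared genes made up 59.4% of the left calls and 34.0% of the right calls. The left and right changes themselves differed for 1394 genes (11.8% of tested genes, edgeR quasi-likelihood interaction), including 25 of the shared genes. A change that misses the threshold of the side difference is not shown to be equal, so the interval of the difference was also used. The 95% interval of the left minus right difference lay within 2-fold for 1536 shared genes, 725 higher and 811 lower. Most shared changes were themselves under 2-fold, so a small change on a single side could also meet this limit. Among shared genes that changed at least 2-fold in each duct, 58 of 195 higher and 27 of 74 lower genes met it.

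**Figure D1:**
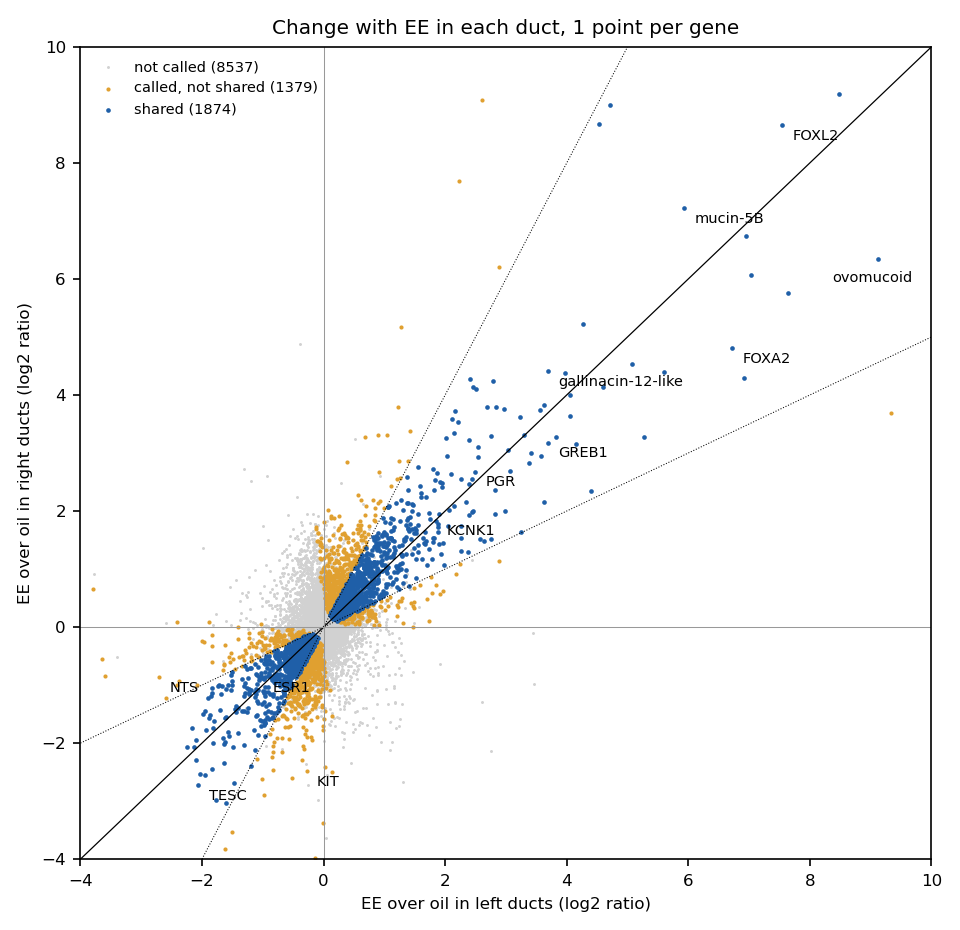
Log2 ratio of EE over oil in left ducts (x axis) and right ducts (y axis), 1 point per tested gene, with the line of equal change and dotted lines at the limit of 0.5 of the larger change. The 1874 shared genes lie between the dotted lines, and the called genes outside them lie mostly nearer the vertical axis. 7 genes with ratios beyond the axes are not drawn.

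Most shared changes were small. The median absolute log2 ratio was 0.56 for the shared higher genes and 0.43 for the shared lower genes. The large changes were mostly rises. In each duct separately the rise was at least 2-fold for 195 genes, at least 4-fold for 62 and at least 8-fold for 30, against 74 genes that fell at least 2-fold and 5 that fell at least 4-fold. The 6 EE samples all lay above the 6 oil samples for 540 shared genes and all below for 426, where 649 tested genes (5.5%) and 540 (4.58%) did so in all. Of the shared higher genes 127 reached the expression filter in EE groups alone, and of the shared lower genes 46 reached it in oil groups alone, so these could enter the test through the treatment in which they were high.

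The EE samples were not equally far from oil. Among the 195 genes that rose at least 2-fold in each duct, right EE sample 3 was the lowest of the 6 EE samples for 114, and among the 74 that fell at least 2-fold it was the highest for 29. With that sample left out, 1489 genes were called higher and 1385 lower.

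The progesterone receptor gene PGR, a direct target of the oestrogen receptor, was at 45.5, 68.2 and 69.0 CPM in left oil, 50.4, 55.6 and 54.9 CPM in right oil, 351, 329 and 343 CPM in left EE and 411, 378 and 242 CPM in right EE samples. All 6 EE samples exceeded all 6 oil samples, and the lowest EE value was the right sample 3. PGR rose by a log2 ratio of 2.58 ± 0.13 (SE, adjusted p = 3.0e-08), with left and right ratios of 2.49 and 2.68. GREB1, whose product is an oestrogen-induced coactivator of the receptor, ranged from 8.38 to 20.5 CPM in oil with a median of 10.4 and from 109 to 139 CPM in EE with a median of 126. The groups did not overlap, and GREB1 rose by 3.43 ± 0.18 on the log2 scale (adjusted p = 3.0e-08).

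ESR1, the gene of oestrogen receptor alpha, moved the other way. It was at 857, 1007 and 1018 CPM in left oil, 803, 855 and 913 CPM in right oil, 522, 465 and 449 CPM in left EE and 491, 490 and 425 CPM in right EE samples. Every EE sample was below every oil sample, on both sides, and the log2 ratio was -0.94 ± 0.07 (adjusted p = 6.3e-07). CITED2, which encodes a transcriptional coregulator, fell by 0.76 on the log2 scale (SE 0.09, adjusted p = 4.9e-05), but its groups overlapped, with oil from 34.9 to 68.5 CPM and EE from 23.8 to 36.9 CPM. Of the 19 tested genes of the list of steroid receptors, their coregulators and steroid-converting enzymes, 2 were called higher and 9 lower, and 2 and 6 of these were shared. With library-size scaling 5 members of this list were called higher, and without left oil sample 3, with limma and for the average of the left and right effects 4 were.

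FOXL2, a forkhead transcription factor best known from ovarian granulosa cells, was almost without counts in oil. It was at 0.186, 0.583 and 1.23 CPM in left oil, 0, 0.334 and 0.564 CPM in right oil, 110, 110 and 117 CPM in left EE and 138, 128 and 103 CPM in right EE samples. No sample of either group came near the other group. The log2 ratio was 8.01 ± 0.29 (adjusted p = 1.5e-09), with left and right ratios of 7.54 and 8.65, and the interval of the side difference ran from -2.57 to 0.35. In the deposited table FOXL2 lies on chromosome 9 at 4453568 to 4455585 on the minus strand, positions identical to those of the RefSeq annotation of the Coturnix japonica 2.1 assembly.

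The gonadal list held 15 genes, of which 11 were tested, 2 of them through EE groups alone. 3 were called higher and 1 lower, and the 3 higher genes were shared. With an FPKM of at least 5, 1 was called higher. Beside FOXL2 these were GATA4, a zinc-finger transcription factor of the gonad, with a log2 ratio of 1.30 ± 0.16, and INHBB, which encodes an inhibin and activin subunit, with 0.86 ± 0.14. GATA4 ranged from 5.84 to 9.58 CPM in oil and from 13.5 to 24.6 CPM in EE, and INHBB from 7.01 to 12.5 CPM in oil and from 14.4 to 20.8 CPM in EE. Neither overlapped between treatments. AMHR2, the receptor of anti-Müllerian hormone, was low in all samples, at 2.53 to 6.46 CPM in oil and 0.709 to 6.09 CPM in EE, and its log2 ratio of -0.95 ± 0.39 missed the threshold (adjusted p = 0.082). It passed with DESeq2 (adjusted p = 0.044), without left EE sample 3 (0.046) and without right EE sample 3 (0.023).

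TBX22, a T-box transcription factor known from the developing palate, had 0 counts in all 6 oil samples and 360, 223 and 421 counts in left EE and 403, 305 and 295 counts in right EE samples. It was at least 95.9-fold higher in left EE and at least 99.1-fold higher in right EE ducts, taking 3 counts in each oil sample as the limit that a count of 0 allows. These bounds cover counting error only. TBX22 lies on chromosome 4 at 1464906 to 1470349 on the plus strand.

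Secreted proteins of the egg white and of mucus were among the genes with the largest shared rises. The list held 30 genes, of which 11 passed the expression filter, 3 of them in EE groups alone. 8 of the 11 were called higher and 1 lower, and 7 of the 8 were shared. With no filter 10 were called higher. The summed level of 36 epithelial markers moved with this group, from 2317 to 2530 CPM in left oil and 1948 to 1992 CPM in right oil to 2841 to 3120 CPM in left EE and 2683 to 3149 CPM in right EE, and its part in these rises was not tested. In bulk samples fewer cells of a type and less RNA per cell cannot be told apart, here and in all results on gene groups.

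The ovalbumin gene, the major egg-white storage protein (LOC107309565), was at 7.72, 4.37 and 6.43 CPM in left oil, 2.06, 0.557 and 6.05 CPM in right oil, 136, 104 and 113 CPM in left EE and 107, 165 and 57.8 CPM in right EE samples. The lowest EE sample was more than 5 times above the highest oil sample. Its log2 ratio was 4.70 ± 0.39 (adjusted p = 1.3e-06), with left and right ratios of 4.26 and 5.23. Reads of ovalbumin could be divided with the ovalbumin-related genes beside it, and how reads matching several copies were counted is not given in the sources used here.

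Ovomucoid, a protease inhibitor of the egg white (LOC107320484), was at 0.140, 0.0833 and 0.0722 CPM in left oil, 0.773, 0 and 0.359 CPM in right oil, 34.2, 49.98 and 94.6 CPM in left EE and 26.1, 57.1 and 11.99 CPM in right EE samples. The EE samples themselves differed up to several fold, and all lay above the oil samples. The log2 ratio was 7.48 ± 0.61 (adjusted p = 1.2e-06). Ovoinhibitor (LOC107320451), a related protease inhibitor, lies 9328 bases away on the same strand of chromosome 13, where ovoinhibitor spans 12334881 to 12344306 and ovomucoid 12353635 to 12359206. Ovoinhibitor was at 5.82, 8.99 and 6.43 CPM in left oil, 22.3, 35.9 and 28.9 CPM in right oil, 273, 246 and 312 CPM in left EE and 362, 298 and 184 CPM in right EE samples. Its EE levels overlapped between sides while its oil levels were higher on the right, and it was one of the 25 shared genes whose changes differed between sides (5.27 left, 3.28 right, adjusted p of the difference = 0.00057).

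Mucin-5B (LOC107314549), a gel-forming mucin, ranged from 0 to 0.326 CPM in oil and from 5.85 to 19.2 CPM in EE with a median of 16.2. The lowest EE value was again right sample 3, still far above all oil samples, and the log2 ratio was 6.41 ± 0.46 (adjusted p = 4.5e-07). The avian beta-defensin gene gallinacin-12-like (LOC107312343) ranged from 0.721 to 3.25 CPM in oil and from 25.7 to 36.7 CPM in EE, a log2 ratio of 4.02 ± 0.21. ORM2, which encodes the plasma glycoprotein orosomucoid, ranged from 0 to 0.233 CPM in oil and from 1.59 to 25.1 CPM in EE, so that EE samples differed widely among themselves. Riboflavin-binding protein (LOC107317492), the vitamin carrier of egg white and yolk, was not in the list and rose by 6.50 ± 0.50, from at most 0.412 CPM in oil to between 6.29 and 31.4 CPM in EE. It overlaps MAST2 on the opposite strand, and the strand setting of the counting is not given in the sources used here. The called gene of the list that was lower, cystatin (LOC107310933), was not shared and had its larger change on the right. Its call was lost with the haemoglobin covariate (adjusted p = 0.18), without the 3 samples holding transcripts of other tissues (adjusted p = 0.11) and without each right EE sample (adjusted p = 0.054 to 0.064).

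Of 46 tested genes of the secretory pathway, 5 were called higher and 3 lower, a share of 17.4% against 27.6% of all tested genes, and 5 and 2 were shared. AGR2, a disulphide isomerase of the endoplasmic reticulum that mucin-making cells of the mouse gut require, was at 19.5 to 29.0 CPM in oil and 66.2 to 78.5 CPM in EE. The groups were far apart and tight, and AGR2 rose by 1.58 ± 0.09 (adjusted p = 4.7e-08), nearly equally in left (1.63) and right (1.53) ducts. The chaperone genes HYOU1 and CALR rose by 0.31 ± 0.06 and 0.20 ± 0.05, and the call of CALR was lost without the 3 samples holding transcripts of other tissues (adjusted p = 0.13). With library-size scaling or limma 15 members were called higher and 1 lower, and without those 3 samples 3 were higher and 1 lower.

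**Figure D2:**
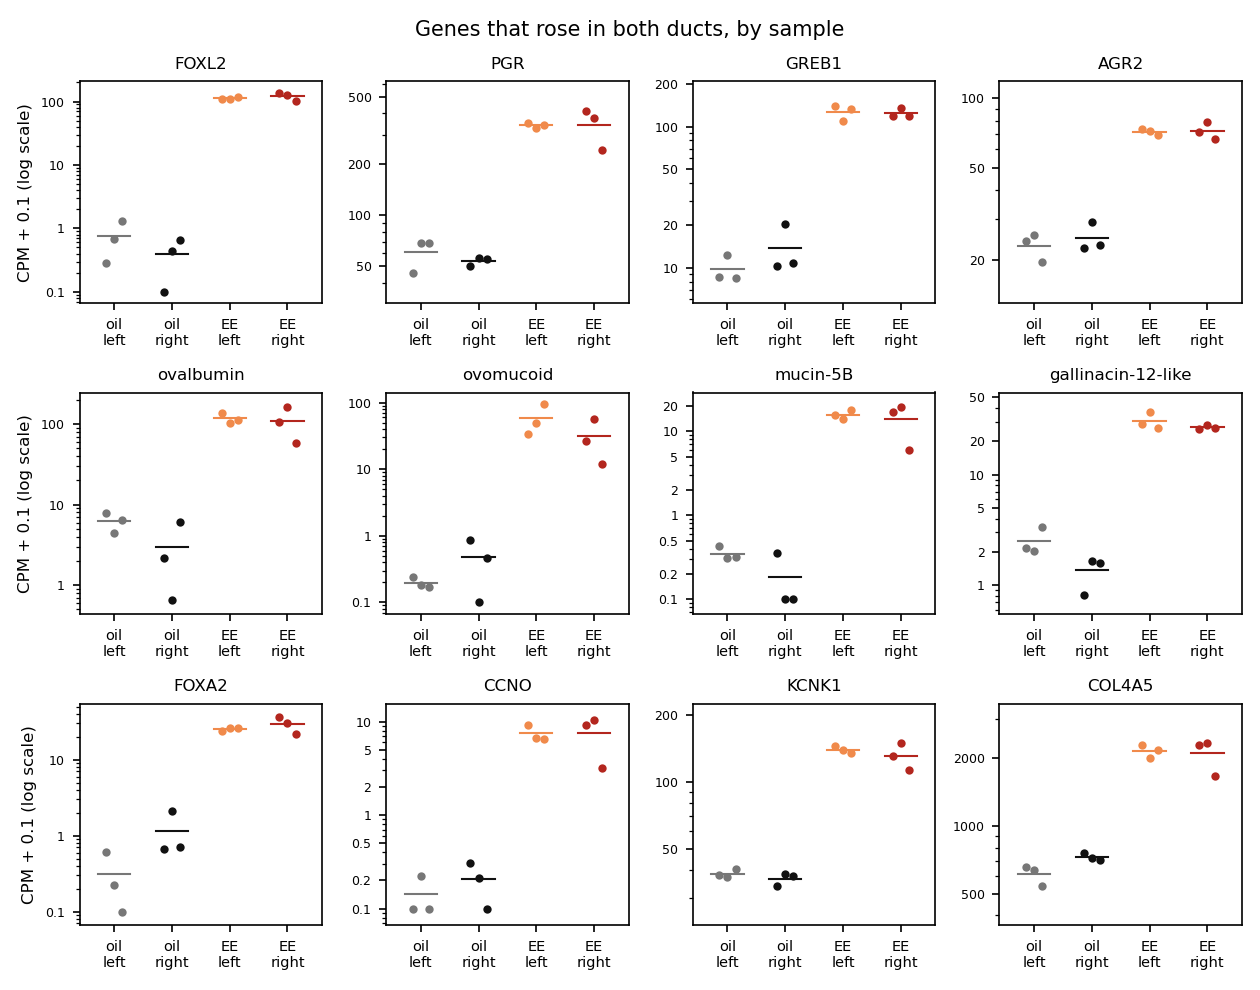
CPM of 12 shared genes that rose, plotted as CPM + 0.1 on log axes, 1 point per sample in 4 groups of 3 with the group mean as a line. In each panel all 6 EE points lie above all 6 oil points, and the third right EE sample is the lowest EE point in all panels but those of GREB1 and gallinacin-12-like. For genes named for the largest shared rises this separation was part of the choice.

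Genes of the motile cilium, the beating cell protrusion found on ciliated cells of the oviduct, were called in the higher direction alone. The list held 61 genes and 29 were tested, 12 of which passed the filter in EE groups alone. 19 of the 29 were called, all 19 higher, and 13 of them were shared. The count depended on the filter, with 3 called higher at an FPKM of at least 5, 39 with no filter on low values and none lower in either case. The summed level of all 61 genes was 221 to 242 CPM in left oil, 157 to 171 CPM in right oil, 350 to 415 CPM in left EE and 271 to 466 CPM in right EE. SNTN, which encodes the ciliary tip protein sentan, had 0 counts in the 6 oil samples and 34, 64 and 35 counts in left EE and 111, 97 and 24 counts in right EE samples. It was at least 13.9-fold higher in left and at least 22.6-fold higher in right EE ducts.

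CFAP44, a ciliary and flagellar protein gene, ranged from 2.31 to 4.21 CPM in oil and from 6.39 to 12.2 CPM in EE. The groups did not overlap and the log2 ratio was 1.57 ± 0.22 (adjusted p = 0.00013). CFAP44 overlaps the shared gene BOC on the opposite strand, and BOC fell. DRC3, a gene of the dynein regulatory complex, ranged from 2.62 to 5.23 CPM in oil and from 8.57 to 11.8 CPM in EE and rose by 1.31 ± 0.18. SPAG6, a gene of the central apparatus of the axoneme, rose by 1.49 ± 0.21 with overlapping groups, 3.29 to 10.5 CPM in oil and 9.76 to 21.0 CPM in EE. RSPH1, a radial spoke gene, had 1, 3 and 3 counts in left oil and 0 in each right oil sample, against 28 to 95 in EE samples. Its similarity of size is not defined, since the right ratio is known only as at least 19.8-fold.

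Regulators of the multiciliated cell included CCNO, the cyclin that mouse multiciliated cells need to multiply their centrioles. It had 0, 3 and 0 counts in left oil, 4, 2 and 0 in right oil, 205, 111 and 160 in left EE and 204, 219 and 62 in right EE samples. In left ducts the ratio was 147-fold with a 95% counting interval of 49.9 to 713. DEUP1, which encodes a scaffold of the deuterosome where such centrioles form, ranged from 1.23 to 5.40 CPM in oil and from 12.5 to 27.0 CPM in EE. Its log2 ratio was 2.71 ± 0.28 (adjusted p = 8.7e-06), with left and right ratios of 2.15 and 3.35. FOXA2, a forkhead factor that mouse uterine glands require, was at 0.512, 0.125 and 0 CPM in left oil, 0.567, 2.004 and 0.615 CPM in right oil, 23.9, 25.9 and 26.0 CPM in left EE and 36.5, 30.04 and 21.9 CPM in right EE samples. Its log2 ratio was 5.50 ± 0.41 (adjusted p = 6.2e-07). The list of these regulators held 18 genes, of which 12 were tested, 3 of them through EE groups alone. 7 of the 12 were called, all higher, and 3 were shared, 42.9% of the called members against 57.6% of all called genes. With an FPKM of at least 5 the 7 became 4, and with no filter 11. FOXJ1, the main transcription factor of motile cilia, was one of the other 4 and was named after its values were seen. FOXJ1 had a left ratio of 1.42 and a right ratio of 3.38, outside the limit of similar size.

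Epithelial junction and identity genes were called higher in 17 of 32 tested cases and lower in 2, and 9 of the 17 were shared. The share called was 59.4%, against 27.6% of all tested genes. Of the called members 47.4% were shared, against 57.6% of all called genes. Cadherin-1 (LOC107319509), the adhesion molecule of epithelia, ranged from 110 to 173 CPM in oil and from 231 to 339 CPM in EE and rose by 1.02 ± 0.11 (adjusted p = 1.3e-05). EPCAM, another epithelial adhesion molecule, ranged from 134 to 185 CPM in oil and from 253 to 338 CPM in EE and rose by 0.88 ± 0.08 (adjusted p = 2.8e-06). The treatments did not overlap for either gene. CLDN10, a tight-junction claudin, rose nearly equally in left (1.05) and right (1.04) ducts, with an interval of the difference from -0.32 to 0.35. PKP3, a gene of desmosomes, rose by 1.16 ± 0.14. Cadherin genes as a family moved both ways. Of 24 tested, 5 were called higher and 7 lower, and 4 and 5 were shared. The mesenchymal cadherin gene CDH11 ranged from 547 to 718 CPM in oil and from 401 to 452 CPM in EE and fell by 0.56 on the log2 scale (adjusted p = 3.3e-05). CDH13, a cadherin without a cytoplasmic part, fell by 0.53.

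Ion channels and transporters were another group in which most called members were shared, 12 of 16, against 57.6% of all called genes. 13 of 36 tested members were called higher and 3 lower. KCNK1, a potassium leak channel gene, was among the 6 shared genes with the narrowest interval of the side difference, out of those that changed at least 2-fold in each duct. It was at 38.2, 37.4 and 40.4 CPM in left oil, 34.1, 38.4 and 37.6 CPM in right oil, 145, 138 and 134 CPM in left EE and 130, 150 and 113 CPM in right EE samples. The groups were tight on both sides. KCNK1 rose by 1.84 ± 0.07 (adjusted p = 1.5e-09), by 1.85 in left and 1.83 in right ducts, with an interval of the difference from -0.28 to 0.31. The bicarbonate cotransporter gene SLC4A4 rose by 1.12 ± 0.13, the chloride cotransporter gene SLC12A2 by 0.66 ± 0.08 and the potassium channel gene KCNQ1 by 0.77 ± 0.09. KCNQ1 met the similar-size limit while its changes differed between sides (0.98 left, 0.56 right, adjusted p of the difference = 0.043).

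The other genes with narrow intervals were, beside CLDN10, COL4A5, COL4A6, PCP4 and TNFSF13B. COL4A5 and COL4A6 encode chains of the network collagen of basement membranes and lie head to head on chromosome 4, COL4A5 at 13047284 to 13120467 on the minus strand and COL4A6 at 13120706 to 13232383 on the plus strand, with 238 bases between them. COL4A5 was at 657, 636 and 543 CPM in left oil, 756, 721 and 706 CPM in right oil, 2287, 2008 and 2177 CPM in left EE and 2297, 2343 and 1675 CPM in right EE samples. COL4A6 ranged from 219 to 370 CPM in oil and from 681 to 894 CPM in EE. Both pairs of groups were separated, and the log2 ratios were 1.68 ± 0.10 for COL4A5 (adjusted p = 6.6e-08) and 1.40 ± 0.11 for COL4A6 (adjusted p = 6.8e-07). PCP4, which encodes a modulator of calmodulin, ranged from 140 to 196 CPM in oil and from 330 to 389 CPM in EE and rose by 1.20 ± 0.08. TNFSF13B, the cytokine known as B-cell activating factor, ranged from 27.8 to 51.6 CPM in oil and from 169 to 203 CPM in EE and rose by 2.21 ± 0.12 (adjusted p = 3.0e-08). A narrow interval was not always centred on 0: it ran from 0.10 to 0.80 for COL4A6, from -0.62 to -0.11 for PCP4 and from -0.88 to -0.16 for TNFSF13B.

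**Figure D3:**
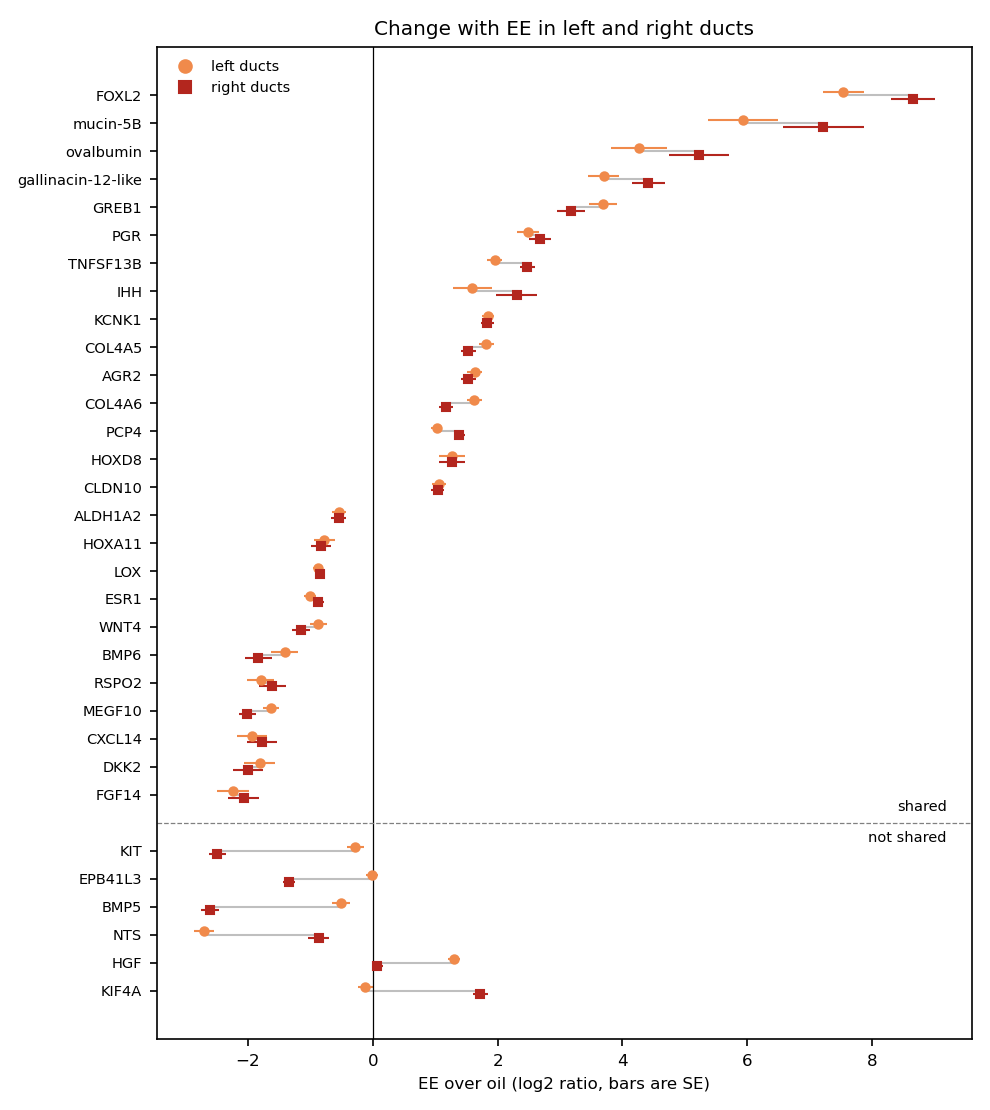
Log2 ratio of EE over oil in left (circles) and right ducts (squares) with SE bars for 26 shared genes and, under the dashed line, 6 called genes that were not shared. The left and right marks of KCNK1, CLDN10, HOXD8, LOX and ALDH1A2 nearly coincide, and those of KIT, BMP5 and KIF4A lie far apart.

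Of 66 tested genes of collagens and matrix, 12 were called higher, 28 lower and 26 in neither direction, and 9 of the higher and 15 of the lower were shared. COL4A5 and COL4A6 were among those that rose. LOX, which encodes the enzyme that crosslinks collagen and elastin, was at 942, 882 and 924 CPM in left oil, 889, 834 and 940 CPM in right oil, 521, 478 and 502 CPM in left EE and 526, 463 and 485 CPM in right EE samples. All EE samples were below all oil samples by a wide margin. LOX fell by 0.86 on the log2 scale (SE 0.06, adjusted p = 2.0e-07), and the interval of its side difference ran from -0.25 to 0.21. The fibrillar collagen genes COL1A1, COL1A2 and COL3A1, named after their values were seen, were shared and fell by 0.64, 0.63 and 0.59. COL9A1, a collagen gene known from cartilage, was low, with 4.61 to 9.38 CPM in oil and 0.766 to 3.02 CPM in EE, and fell by 2.03. EMILIN2, a gene of an elastic-fibre glycoprotein, ran against the group with 34.2 to 53.3 CPM in oil and 80.7 to 134 CPM in EE and a log2 ratio of 1.41 ± 0.10.

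Genes of the WNT pathway changed in both directions, 10 higher and 16 lower of 49 tested, with 7 and 7 shared. With library-size scaling 10 were lower, as without the 3 samples holding transcripts of other tissues. WNT4, the ligand gene needed in mouse for the duct to form, was at 145, 154 and 130 CPM in left oil, 235, 248 and 291 CPM in right oil, 77.4, 75.4 and 81.3 CPM in left EE and 115, 87.7 and 146 CPM in right EE samples. It was lower in EE on each side, although the highest right EE value overlapped the left oil values, and fell by 1.01 on the log2 scale (SE 0.11, adjusted p = 1.3e-05), with left and right ratios of -0.87 and -1.15. RSPO2, a secreted enhancer of WNT signalling, ranged from 14.1 to 17.9 CPM in oil and from 3.06 to 5.61 CPM in EE and fell by 1.70 (SE 0.15, adjusted p = 2.6e-06). LGR6, a receptor for R-spondins, ranged from 6.80 to 12.0 CPM in oil and from 23.0 to 41.4 CPM in EE and rose by 1.85 ± 0.18. DKK2, a secreted antagonist, ranged from 30.6 to 51.5 CPM in oil and from 7.30 to 16.7 CPM in EE and fell by 1.91 (SE 0.18, adjusted p = 4.8e-06). The frizzled receptor gene FZD10 ranged from 15.4 to 20.3 CPM in oil and from 33.1 to 43.0 CPM in EE and rose by 1.13 ± 0.10. WNT7A, the epithelial ligand of the duct, lay near the threshold over both sides, with a log2 ratio of 0.38 ± 0.14 (adjusted p = 0.057). It passed with DESeq2 (adjusted p = 0.026), library-size scaling (0.040), limma (0.043) and the average of the left and right effects (0.00012), and without each of left EE samples 2 and 3 and left oil samples 1 and 2. Its left and right ratios of -0.08 and 0.84 differed (adjusted p = 8.9e-05).

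Of 41 tested genes of the BMP and TGF-beta pathway, 8 were called higher, or 4 with an FPKM of at least 5, and 13 lower, and 4 and 8 were shared. BMP6, a ligand gene, ranged from 15.2 to 32.2 CPM in oil and from 5.16 to 8.72 CPM in EE without overlap and fell by 1.62 (SE 0.16, adjusted p = 7.6e-06). BAMBI, a decoy receptor, ranged from 43.1 to 70.7 CPM in oil and from 18.6 to 26.8 CPM in EE and fell by 1.21 (SE 0.13, adjusted p = 1.2e-05). The receptor gene BMPR1B went up, from 8.19 to 16.9 CPM in oil to between 29.8 and 48.0 CPM in EE, a log2 ratio of 1.78 ± 0.16 (adjusted p = 3.4e-06). LTBP1, whose product binds latent TGF-beta to the matrix, ranged from 294 to 520 CPM in oil and from 641 to 1344 CPM in EE and rose by 1.46 ± 0.12. The related ligand gene BMP5 was called lower but not shared, with left and right ratios of -0.51 and -2.60.

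Of 12 tested hedgehog pathway genes 4 were called higher and 3 lower, and 3 of each direction were shared. Those that rose included the gene of the inhibitor SUFU. IHH, the Indian hedgehog ligand, ranged from 1.44 to 4.16 CPM in oil and from 8.70 to 10.4 CPM in EE and rose by 1.94 ± 0.24 (adjusted p = 4.9e-05). GLI2, a transcription factor at the end of the pathway, ranged from 106 to 127 CPM in oil and from 50.2 to 85.2 CPM in EE and fell by 0.67 (SE 0.10). GLI3, another such factor, fell by 0.46. GLI3 and SUFU were named after their values were seen. BOC, a hedgehog coreceptor, ranged from 260 to 293 CPM in oil and from 174 to 219 CPM in EE and fell by 0.52 (SE 0.06).

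Among FGF genes 5 of 25 tested were called higher and 6 lower. Of these 2 and 4 were shared, 54.5% of the called members against 57.6% of all called genes. FGF14, an intracellular member of the family, was at 21.4, 14.7 and 17.9 CPM in left oil, 23.0, 20.2 and 18.4 CPM in right oil, 4.17, 2.54 and 4.56 CPM in left EE and 3.88, 4.14 and 6.69 CPM in right EE samples. All EE values were under the lowest oil value. It fell by 2.15 (SE 0.18, adjusted p = 1.7e-06). The receptor genes moved apart, as FGFR3 rose by 1.18 ± 0.13 and FGFR4 fell by 0.73 (SE 0.11).

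HOX genes give positional identity along the reproductive tract. Of 30 tested genes 4 were called higher and 10 lower, and 12 of these 14 were shared, 85.7% against 57.6% of all called genes. In the HOXA cluster 6 of 10 tested genes were called, and each of the 6 was lower and shared. HOXA11 was at 63.2, 60.8 and 49.96 CPM in left oil, 54.8, 54.2 and 46.0 CPM in right oil, 33.6, 34.8 and 33.5 CPM in left EE and 20.3, 29.8 and 37.2 CPM in right EE samples. The treatments did not overlap, and HOXA11 fell by 0.80 (SE 0.12, adjusted p = 0.00021). HOXA10 fell by 0.69 (SE 0.13), HOXA9 by 0.71 (SE 0.12) and HOXA3 by 0.50 (SE 0.08). HOXA3 as annotated overlaps HOXA4, HOXA5 and HOXA6 on the same strand, so its reads are uncertain. The HOXD cluster moved both ways. HOXD13, the gene of the caudal end of the tract in mouse, ranged from 9.43 to 14.3 CPM in oil and from 1.53 to 5.54 CPM in EE and fell by 1.78 (SE 0.32, adjusted p = 0.00085), while HOXD8 in the same cluster on chromosome 7 ranged from 8.61 to 13.99 CPM in oil and from 19.97 to 28.5 CPM in EE and rose by 1.27 ± 0.15 (adjusted p = 3.1e-05). HOXD8 changed by nearly the same amount in left (1.27) and right (1.26) ducts.

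Among genes of duct formation 3 of 19 tested were called higher and 6 lower, with 1 and 3 shared, and 3 of the 19 passed the filter in oil groups alone. The 3 higher calls became 1 with the haemoglobin covariate, without the 3 samples holding transcripts of other tissues and without each of right EE samples 1 and 2 and right oil samples 1 and 3. They became 6 with library-size scaling and 5 with limma, without left EE sample 3 and for the average of the left and right effects. WT1, a transcription factor of the coelomic epithelium and mesenchyme, ranged from 220 to 431 CPM in oil and from 119 to 200 CPM in EE and fell by 0.96 (SE 0.12, adjusted p = 4.2e-05). In the retinoic acid list 2 of 14 tested were called higher and 7 lower. Of these 2 and 1 were shared, 33.3% of the called members against 57.6% of all called genes. The 7 became 2 without the 3 samples holding transcripts of other tissues, 3 with the haemoglobin covariate and 4 with library-size scaling, with limma and without each of right EE samples 1 and 2 and right oil sample 1. ALDH1A2, the main retinoic acid synthesising enzyme of mesenchyme, ranged from 273 to 363 CPM in oil and from 192 to 255 CPM in EE and fell by 0.54 (SE 0.09), by nearly the same amount in each duct. STRA6, the cell surface receptor that takes up retinol, rose by 0.86 ± 0.09. BCO2, a carotenoid-cleaving enzyme, ranged from 0 to 1.06 CPM in oil and from 8.18 to 26.7 CPM in EE and rose by 5.07 ± 0.46.

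Of 50 tested axon guidance genes, whose products also steer cell contact outside the nervous system, 6 were called higher and 14 lower, with 4 and 8 shared. The 14 became 8 with library-size scaling and 9 with the haemoglobin covariate. The netrin receptor gene UNC5C ranged from 331 to 515 CPM in oil and from 147 to 232 CPM in EE and fell by 1.17 (SE 0.10, adjusted p = 2.5e-06). The semaphorin receptor gene PLXNA4 ranged from 74.2 to 124 CPM in oil and from 44.0 to 54.7 CPM in EE and fell by 0.99 (SE 0.08). EPHB1, an ephrin receptor, ranged from 97.2 to 169 CPM in oil and from 270 to 312 CPM in EE. EPHB1 reached almost the same EE level on both sides from different oil levels, so that its log2 ratio was 0.81 in left and 1.55 in right ducts (adjusted p of the difference = 0.00022).

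**Figure D4:**
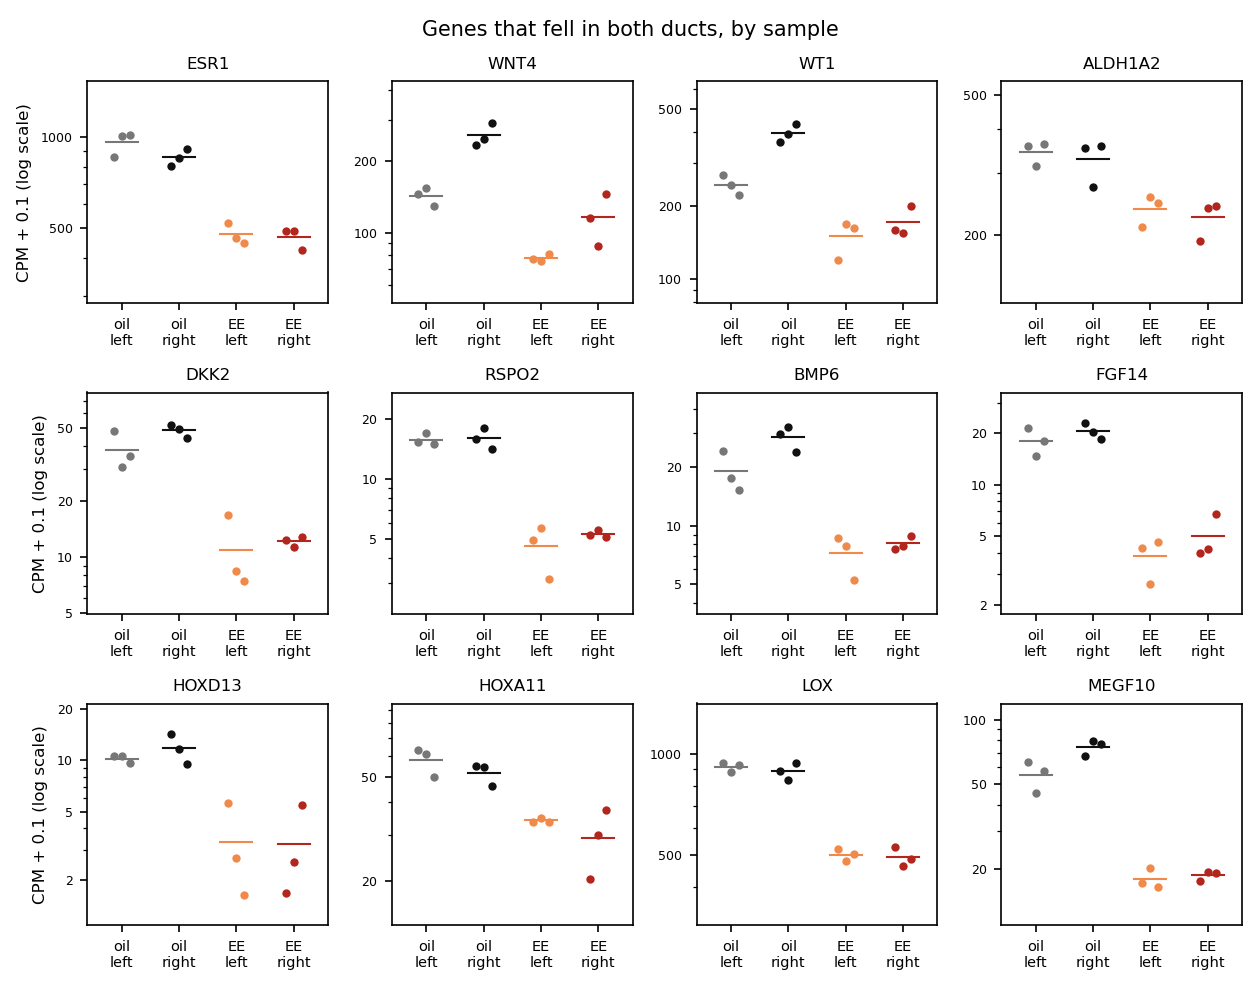
CPM of 12 shared genes that fell, plotted as CPM + 0.1 on log axes, 1 point per sample in 4 groups of 3 with the group mean as a line. The EE points lie below all oil points in every panel but that of WNT4, where right EE and left oil points overlap. For genes named for the largest shared falls this separation was part of the choice.

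The other genes with the largest shared falls came from several families. MEGF10, an engulfment and cell contact receptor, was at 63.0, 45.3 and 57.2 CPM in left oil, 67.7, 79.3 and 76.5 CPM in right oil, 17.0, 20.1 and 16.2 CPM in left EE and 17.4, 19.1 and 19.0 CPM in right EE samples. The 6 EE values were close together on both sides, and MEGF10 fell by 1.82 (SE 0.10, adjusted p = 6.7e-08). CXCL14, a chemokine gene, ranged from 143 to 264 CPM in oil and from 32.7 to 74.0 CPM in EE and fell by 1.86 (SE 0.18). SLITRK4 and SV2C, both known from neurons, fell by 2.29 (SE 0.17) and 2.15 (SE 0.17). STC2, which encodes the secreted glycoprotein stanniocalcin 2 and is an oestrogen target in human breast cells, fell by 2.25 (SE 0.26), from 9.04 to 28.9 CPM in oil to between 2.48 and 4.57 CPM in EE. TESC, a calcium-binding protein gene, fell by 2.40 (SE 0.29), and the T-box gene TBX15, known from mesenchyme, fell by 2.097 (SE 0.41). TESC ranged from 24.6 to 111 CPM in oil and from 4.44 to 22.6 CPM in EE, and TBX15 from 11.8 to 28.9 CPM in oil and from 1.37 to 11.1 CPM in EE.

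Of 17 tested genes of the oestrogen target list, taken from mammalian cells, 4 were called higher and 3 lower. The share called was 41.2%, against 27.6% of all tested genes. PGR, GREB1 and STC2 were shared, 42.9% of the called members against 57.6% of all called genes. 4 of 32 tested proliferation genes were called higher over both sides, each with a called difference between sides and none shared, and the median log2 ratio was -0.20 in left and 1.32 in right ducts. None of the 4 calls held with the haemoglobin covariate, without the 3 samples holding transcripts of other tissues or without any single right oil or right EE sample. The count was 7 with DESeq2, 9 with library-size scaling, 10 with limma, 17 without left EE sample 3 and 29 for the average of the left and right effects. Of 11 tested macrophage and leukocyte genes 1 was called, lower and not shared, and none with the haemoglobin covariate or without the 3 samples. Of 28 endothelial genes 5 were called higher and 1 lower, and 1 was shared. With the haemoglobin covariate 1 endothelial gene was called higher, and for the average of the left and right effects 14 were.

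**Figure D5:**
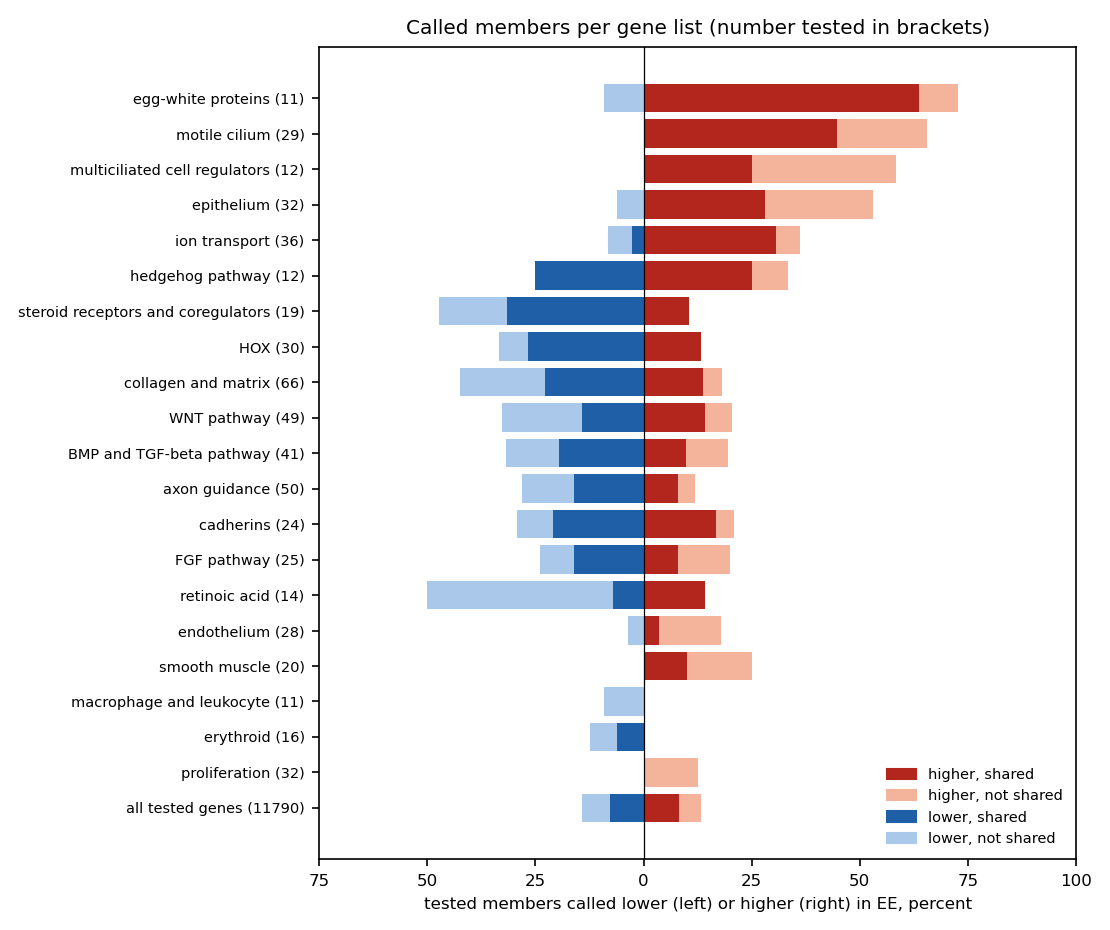
Percent of the tested members of each gene list called higher (to the right) or lower (to the left) in EE, with shared members in the dark colour and other called members in the light colour. More egg-white and motile cilium genes are called higher than lower, more HOX, steroid receptor and matrix genes are called lower than higher, and all tested genes are shown in the bottom row.

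For contrast, the called genes with the lowest p of the side difference were examined in each of 3 classes, those more changed on the right, more changed on the left or changed in opposite directions. KIT, the receptor of stem cell factor, was at 28.6, 35.6 and 25.1 CPM in left oil, 199, 254 and 219 CPM in right oil, 23.6, 24.3 and 25.9 CPM in left EE and 41.0, 34.4 and 44.4 CPM in right EE samples. Only right oil stood out, and the log2 ratios were -0.28 and -2.49. The macrophage marker sum was highest in the same 3 samples, and its part in KIT was not tested. NTS, the neurotensin gene, was at 124 to 140 CPM in left oil and 7.84 to 22.6 CPM in the other 9 samples, with log2 ratios of -2.70 and -0.86. The mitosis gene KIF4A was at 83.8 to 92.8 CPM in left oil, 16.8 to 22.1 CPM in right oil and 57.7 to 89.4 CPM in EE samples. The calls over both sides were lost with the haemoglobin covariate for KIT (adjusted p = 0.061) and KIF4A (0.29), and that of KIF4A also without the 3 samples holding transcripts of other tissues (0.15) and without any single right sample (0.070 to 0.12).

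The limit of similar size cuts through a continuum. Among genes with a change of at least 2-fold over both sides, PROKR1, a prokineticin receptor gene, was just inside with ratios of -1.20 and -2.40, as were LOC107309359 (3.25 and 1.63) and VSTM2L (1.40 and 0.70), whose call was lost with the haemoglobin covariate (adjusted p = 0.11) and without each of 8 single samples (0.058 to 0.080). Just outside were CNKSR2 (-1.45 and -0.73), ADAMTS17 (-1.34 and -0.66) and RPP30 (0.67 and 1.35). Of the shared genes 5, all higher, had 3 counts or fewer in at least 1 group, so their similarity of size is uncertain, and 950 higher and 919 lower genes did not. With each of the 12 samples left out in turn, 761 shared higher and 699 shared lower genes were called every time, and 560 and 471 were shared every time.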

How the data were processed

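The deposited table holds the authors' raw counts per gene and sample, with FPKM values and gene lengths in bases, which the counts and lengths returned to within 0.005. Per the submitters' processing notes, cutadapt 1.9.1, HISAT2 2.0.1, HTSeq 0.6.1 and DESeq2 1.6.3 were used. Their roles, the build, the gene models and whether counting used strand are not given in the sources used for this work. The limit of strand also holds for BMP6, COL4A6, DEUP1, TESC, WT1 and CNKSR2, each of which overlaps another gene on the opposite strand. For each of 16013 genes the table has the start and end of the RefSeq annotation of Coturnix japonica 2.1.

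The test on counts was that of edgeR 4.0.16, run under R 4.3.3 (two-sided quasi-likelihood test with TMM factors, Benjamini-Hochberg adjustment over 11790 genes with an FPKM of at least 1 in 3 samples of any group). The main model had treatment and side as additive terms, and a model of 4 group means gave the left, right and side-difference values. Levels are CPM from the counts with TMM scaling. The code was tested on simulated data. The members and gene lists were chosen with earlier results of these data known, and 36 list genes were found by description.

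The named genes are the 14 shared genes of each direction with the largest smaller-side change, separated samples and a mean of at least 1 CPM, up to 4 shared members per list with the lowest p, a fixed set of hormone and egg-white genes, the 4 clearest side differences of each of 3 kinds, the 6 narrowest side differences and 3 genes on each side of the size limit. Some genes that this rule names are not reported here. The labels do not say whether replicates came from separate embryos, so p-values measure the spread between these samples, which may be technical. They also do not say whether left and right samples of a number came from the same embryos. If they did, the 6 samples of a treatment would not be independent, and p-values over both sides could be too small. Alternatives were DESeq2 1.42.0, limma 3.58.1 on log2(FPKM + 1), other scalings and filters, a haemoglobin covariate, a replicate block and left-out samples.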

Additional observations from a re-analysis of the deposited data

Results flagged for a closer look

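For the genes below the EE change differed between left and right ducts by the edgeR interaction test. The values are the left minus the right log2 ratio. Among shared genes the difference was 1.99 for ovoinhibitor (LOC107320451), 0.43 for KCNQ1 and -0.75 for EPHB1, 3 genes that met the size limit. Just outside that limit it was -0.68 for RPP30.

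Genes that fell more on the right or rose more on the left gave 2.21 for KIT, 2.09 for BMP5, 1.32 for EPB41L3, 1.70 for cystatin (LOC107310933), 1.46 for HMOX1 and 1.23 for HGF. Genes that fell more on the left or rose more on the right gave -1.69 for HSD17B2, -1.84 for NTS, -1.84 for KIF4A, -1.60 for DLGAP5, -1.82 for CCNB3 and -0.93 for WNT7A. The haemoglobin share and the macrophage marker sum were highest in right oil samples, and their part in these differences was not tested.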

How the results depend on the processing

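No shared gene changed sign under any alternative in which it was tested. The alternatives used the samples from which these genes were chosen, so this was nearly fixed by the choice. With the haemoglobin covariate 2027 genes were called, 982 higher and 1045 lower. Without left oil 1, right oil 1 and right EE 1, 1899 were called, 928 higher and 971 lower, and 608 were shared and lower. Library-size scaling gave 2360 higher, 1009 lower and 583 shared lower, and limma on log2(FPKM + 1) gave 2437, 986 and 547. FPKM is also scaled by total counts without TMM factors, so the limma result is no separate check of the scaling. The cause of these shifts was not tested. Requiring the smaller change to be at least 0.75 of the larger left 866 shared genes, 447 higher and 419 lower, and requiring both sides to be called separately left 878, 489 higher and 389 lower. Leaving out 1 sample gave 2577 to 3365 called and 1579 to 1919 shared genes.

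A replicate block gave 2913 called genes, 1409 higher and 1504 lower, and 1787 shared, 917 higher and 870 lower, and none of the 32 proliferation genes was called. The numbers were not taken as pairs. Deviations of same-numbered EE and oil samples of a side correlated at -0.25 to 0.00 over genes. Those of same-numbered left and right samples correlated at 0.07 to 0.18 in oil and -0.05 to 0.08 in EE. For different numbers the range was -0.175 to 0.043 in oil and -0.192 to 0.192 in EE. These values do not settle whether left and right samples of a number came from the same embryos. The replicate block joined numbers across treatments as well, so it does not settle this either. Of 142 named genes 20 lost their call with the haemoglobin covariate and 21 without the 3 samples. The 3 samples per group limit the precision of each side difference.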
